A study of Mus musculus with 8 samples.

Results

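The genes described here are 10 genes of the mouse, immediate early genes together with corepressor genes of the EGR factors. The EGR transcription factor genes are Egr1, Egr2 and Egr3, and the corepressor genes are Nab1 and Nab2. The others are the nuclear receptor gene Nr4a1, Ier2, Ier3, and the mRNA decay genes Zfp36 and Zfp36l1. The genes were taken as every non-control probe whose name on the array, or whose current symbol through its accession, is one of these 10. This gave 15 of 41174 probes. They were selected on their log2 ratios of starved over unstarved cells, which were known when the list was proposed, so those ratios are given as a description and without a test. A gene counted as measured when the scanner software called a probe well above background for a group on each of the 4 arrays, in 1 group or in both. By that rule 9 of the 10 genes were measured, among 16069 measured genes in all, and Egr3 was not. Each of the 9 was well above background in both groups.

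Starved cells were IMCD3 cells, a mouse kidney cell line of inner medullary collecting duct origin, kept for 48 h without fetal calf serum (FCS), which is done to make them form cilia. Unstarved cells were IMCD3 cells in 10% FCS that had been replated at a dilution of 1:10 a day earlier and were still subconfluent at harvest. Serum and cell density therefore differed together between the groups and cannot be told apart. The series belongs to a search for effectors of FOXJ1, a transcription factor of motile cilia, and holds 4 starved and 4 unstarved samples from 2 dishes each. Labelled cRNA made from 500 ng of total RNA was hybridised in pairs, 1 starved with 1 unstarved sample, on 4 Agilent 2-colour arrays with 60-base probes. By the sample labels arrays 1 and 3 form replicate 1, with starved RNA in Cy5, and arrays 2 and 4 form replicate 2, with starved RNA in Cy3, so replicate and dye orientation cannot be told apart. Levels are log2 normalised intensities of 1 channel, given in the order of arrays 1 to 4, and ratios are log2 starved over unstarved within an array. A level has no meaning against that of another probe.

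Immediate early genes are transcribed within minutes of a stimulus such as serum, without new protein synthesis, and their mRNAs are short-lived. In the classical route, growth factor receptors activate the RAS, RAF, MEK and ERK kinases, ERK phosphorylates ternary complex factors such as ELK1, and these act with serum response factor (SRF) at CArG boxes in the promoters. EGR proteins bind GC-rich sites through zinc fingers, NAB proteins bind EGR proteins and limit their activity, and ZFP36 proteins bind AU-rich sequences in other mRNAs and bring the CCR4-NOT deadenylase to them. In kidney tubule cells Egr1 is known as a gene that responds to growth factors and to ischaemia.

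Promoter sequences are shown because 2 of the members, Egr2 and Zfp36, carry the letters of the CArG box, the element through which serum is known to act. They come from RefSeq on the build GRCm38.p6, as windows of equal length around annotated starts, and 7 of the 10 members matched with 11 windows: Egr2 with 5, and Nab1, Nab2, Nr4a1, Ier3, Zfp36 and Zfp36l1 with 1 each. A CArG box (both strands searched) was found in 5 of these 11 windows, which belong to Egr2 and Zfp36, and in 1.63% of all 32817 windows of the same length. Of the 4 Egr2 windows with a box, 3 overlap and hold the same site, CCATATATGG, and the other holds CCTTTTTTGG. With 1 mismatch allowed at any base of the box, 7 of the 11 windows, from Egr2, Zfp36, Nr4a1 and Ier3, held a match. So did 21.1% of all windows. The stretches below run 5′ to 3′ on the strand of the gene up to the base before the start. In Egr2 (chr10:67537719-67537868, plus strand) capitals mark the CArG box at bases -72 to -63 from the start and TGACG on either strand, the core of the cyclic AMP response element. In Zfp36 (chr7:28379229-28379378, minus strand) they mark the EGR site GCGNGGGCG at -105 to -97 and the CArG box CCATAAAAGG at -58 to -49. In Nr4a1 (chr15:101266666-101266845, plus strand) they mark a CArG box with 1 mismatch at -101 to -92 and TGACG on either strand. In Ier3 (chr17:35821513-35821712, plus strand) they mark CArG boxes with 1 mismatch at -175 to -166 and -71 to -62.
Egr2: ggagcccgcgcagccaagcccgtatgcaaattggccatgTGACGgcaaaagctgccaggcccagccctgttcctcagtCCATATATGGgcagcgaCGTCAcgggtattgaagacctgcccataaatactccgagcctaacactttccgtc
Zfp36: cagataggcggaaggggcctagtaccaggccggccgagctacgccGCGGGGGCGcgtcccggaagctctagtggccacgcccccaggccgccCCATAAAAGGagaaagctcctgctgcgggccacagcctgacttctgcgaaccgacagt
Nr4a1: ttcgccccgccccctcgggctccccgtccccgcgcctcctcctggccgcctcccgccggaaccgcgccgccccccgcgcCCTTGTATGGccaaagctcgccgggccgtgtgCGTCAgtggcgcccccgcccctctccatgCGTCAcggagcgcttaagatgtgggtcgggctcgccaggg
Ier3: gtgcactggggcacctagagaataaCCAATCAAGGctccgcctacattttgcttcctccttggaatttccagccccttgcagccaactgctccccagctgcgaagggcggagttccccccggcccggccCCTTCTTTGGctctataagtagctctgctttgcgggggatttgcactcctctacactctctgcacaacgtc

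Other motifs were searched on both strands in the same windows. The EGR site GCGNGGGCG stood in the windows of Nab1, Zfp36 and Nr4a1, 3 of 11, against 5.56% of all windows, and the Nab1 window held it 3 times. The core TGACG was found in 5 of 11 windows, from 3 genes, against 20.8% of all windows. Those 5 include the 3 overlapping windows of Egr2, which hold the same sites. The ETS core CCGGAA was found in 3 of 11, from 3 genes, against 14.9%. These are matches of letters, and no binding was measured here.

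The EGR factors separated into a measured pair and a gene below detection. Egr1, probed at chr18:34990715-34990774 on the plus strand of mm8, the build of the array design, encodes the zinc finger factor that founded the family. Its levels were 16.97, 17.05, 17.06 and 16.99 in starved cells, against 15.29, 15.81, 15.50 and 15.69 in unstarved cells. All 4 starved samples lay above all 4 unstarved ones, with no overlap. The log2 ratio was 1.44 ± 0.24 (SD, n = 2 replicates), or 2.72-fold higher in starved cells, and on the single arrays it was 1.67, 1.24, 1.56 and 1.30. Both arrays of replicate 1 gave a larger ratio than both arrays of replicate 2. Since bulk RNA was measured, a change in RNA per cell and a change in how many cells carry the transcript cannot be told apart, here and for the genes that follow.

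Egr2, also known as Krox20 and required for peripheral myelin, stood out most among the members. Its probe lies at chr10:66937367-66937426 on the plus strand of mm8. Levels were 12.55, 12.46, 12.47 and 12.52 in starved cells, against 9.42, 9.60, 9.36 and 9.63 in unstarved cells. The starved samples lay within 0.1 of each other and far above every unstarved sample. The log2 ratio was 3.0 ± 0.18 (SD, n = 2), which is 7.98-fold higher in starved cells and the 6th highest ratio of the 16069 genes. This probe was printed as 10 spots on each array, and their ratios had an SD of 0.053, 0.042, 0.030 and 0.030 within arrays 1 to 4. The spots of an array repeat 1 hybridisation and measure technical spread only, which was smaller than the distance of 0.25 between the replicates. The 3 non-member genes whose ratios on the 4 arrays lay nearest to those of Egr2, by Euclidean distance over 16060 genes, were Bdh2 (distance 0.097, log2 ratio 3.0), Cfi (0.41, ratio 3.19) and Depp1 (0.47, ratio 2.81).

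Egr3, the third EGR gene of the list, was not well above background. Of its 2 probes on chromosome 14, the probe at 68814100-68814159 of mm8 was well above background on 1 of 4 arrays in starved and on 1 of 4 in unstarved cells, and the probe at 68817252-68817311 on 0 of 4 in both. No ratio is given for it, because both groups are below the level the array resolves.

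**Figure D1:**
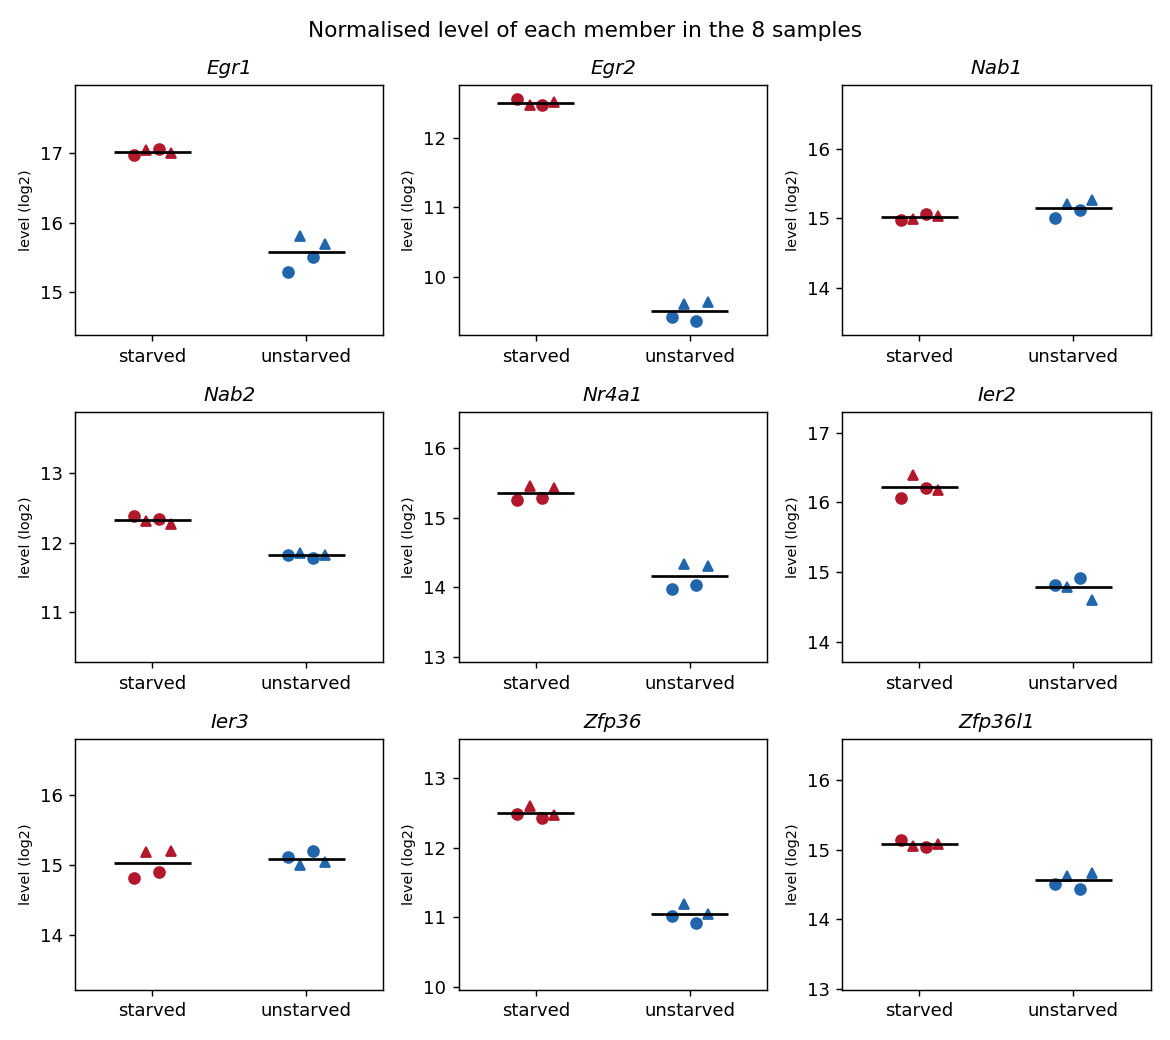
Log2 normalised channel level (y axis) of the 9 measured members in starved (red, left) and unstarved (blue, right) cells, with each point 1 sample, circles for replicate 1, triangles for replicate 2 and a bar at the group mean. Every y axis spans the same number of log2 units, so the gap between the groups can be compared between panels, and it is widest for Egr2, at 3.0, while the samples of Nab1 and Ier3 overlap.

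The NAB genes encode corepressors that bind EGR1, EGR2 and EGR3. Nab1 had levels of 14.97, 15.00, 15.06 and 15.03 in starved cells, against 15.00, 15.21, 15.13 and 15.26 in unstarved cells, with its brighter probe at chr1:52401875-52401934 on the minus strand of mm8. The groups overlapped in their ranges, and the log2 ratio was -0.13 ± 0.12 (SD, n = 2). Its dimmer probe gave levels of 13.15, 12.96, 12.97 and 12.98 in starved cells, against 13.03, 13.03, 12.84 and 13.04 in unstarved cells, and a log2 ratio of 0.03 ± 0.13 (SD, n = 2). The probes differ in sign, and neither ratio clearly exceeds its own spread.

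Nab2, itself known as a target of EGR1 and so part of a negative feedback, had levels of 12.38, 12.31, 12.34 and 12.26 in starved cells, against 11.82, 11.85, 11.77 and 11.83 in unstarved cells (chr10:127063874-127063933, minus strand, mm8). The groups did not overlap. The log2 ratio was 0.50 ± 0.08 (SD, n = 2), or 1.42-fold higher in starved cells, which is less than that of Egr1 or Egr2 on every array.

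Nr4a1 encodes NUR77, an orphan nuclear receptor whose activity is set largely by how much of it is made. At chr15:101102674-101102733 on the plus strand of mm8, its levels were 15.26, 15.46, 15.29 and 15.43 in starved cells, against 13.98, 14.34, 14.03 and 14.31 in unstarved cells. Every starved sample was higher than every unstarved one, and within both groups the samples of replicate 2 were the higher ones. The log2 ratio was 1.19 ± 0.10 (SD, n = 2), or 2.29-fold higher in starved cells. Spots too bright for the first scan carry values scaled up from a scan at lower gain, per the file headers, and for Nr4a1 this was so in 4 starved and 2 unstarved samples. Its part in the ratio was not tested.

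The IER genes gave unlike results. Ier2 encodes a small nuclear protein that follows growth factor stimulation. Its brighter probe, on the minus strand of chromosome 8 with its design position at 87549656-87549690 of mm8, had levels of 16.07, 16.40, 16.21 and 16.18 in starved cells, against 14.82, 14.78, 14.92 and 14.60 in unstarved cells. Its dimmer probe, at 87549829-87549887, had levels of 12.10, 11.94, 11.96 and 12.11 in starved cells, against 9.92, 9.83, 9.80 and 9.99 in unstarved cells. With both probes the groups lay apart, but the sizes differed: 1.44 ± 0.23 (SD, n = 2), or 2.71-fold, with the brighter probe and 2.14 ± 0.04 (SD, n = 2), or 4.42-fold, with the dimmer one. The values of the brighter Ier2 probe came from the low-gain scan in all 8 samples, as did those of Egr1 and of the brighter Nab1 probe, and those of the dimmer Ier2 probe in 0. Its part in the difference between the probes was not tested.

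Ier3, also called IEX-1 and linked to cell survival under stress, had levels of 14.81, 15.19, 14.90 and 15.21 in starved cells, against 15.11, 15.00, 15.20 and 15.04 in unstarved cells (chr17:35430636-35430695, plus strand, mm8). The groups overlapped, and the direction turned with the replicate: the log2 ratio was -0.30 in replicate 1 and 0.18 in replicate 2, with a mean of -0.06 ± 0.34 (SD, n = 2). The distance between its replicates was larger than that of 91.3% of all genes, while those of the other 8 measured members ranged from the 19.7th to the 80.7th percentile. Replicate and dye orientation cannot be told apart here. All 8 Ier3 values also came from the low-gain scan.

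The ZFP36 genes encode proteins that bind AU-rich elements and shorten the life of the bound mRNA. Zfp36, the gene of tristetraprolin, had levels of 12.48, 12.60, 12.43 and 12.47 in starved cells, against 11.03, 11.19, 10.92 and 11.05 in unstarved cells with its brighter probe (chr7:28085873-28085932, minus strand, mm8). The log2 ratio was 1.45 ± 0.05 (SD, n = 2), or 2.73-fold higher in starved cells. Its dimmer probe, at 28085681-28085740, gave 9.80, 9.75, 9.95 and 9.76 in starved cells, against 8.79, 8.93, 8.89 and 8.93 in unstarved cells, a log2 ratio of 0.93 ± 0.14 (SD, n = 2) or 1.90-fold. Neither probe showed any overlap between the groups, and neither used the low-gain scan.

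Zfp36l1, also called BRF1 or TIS11B, is the close relative of Zfp36. Its brighter probe, at chr12:81026941-81027002 on the minus strand of mm8, had levels of 15.15, 15.05, 15.04 and 15.08 in starved cells, against 14.52, 14.63, 14.43 and 14.66 in unstarved cells. The neighbouring probe at 81026875-81026934 had 14.99, 14.87, 14.99 and 14.72 in starved cells, against 14.34, 14.53, 14.30 and 14.42 in unstarved cells. The groups lay apart with both probes, and the log2 ratios of 0.52 ± 0.14 (1.43-fold) and 0.49 ± 0.24 (1.41-fold; SD, n = 2 each) differed by less than their spread. The low-gain scan gave the values of 4 starved and 2 unstarved samples for the brighter probe and of 3 starved and 2 unstarved for its neighbour, and its part was not tested.

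**Figure D2:**
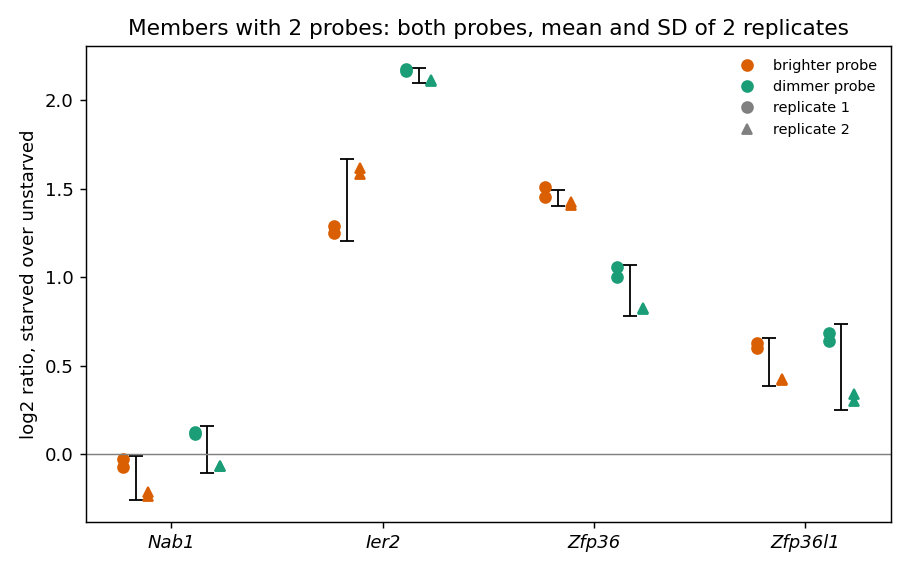
Log2 ratio of starved over unstarved cells (y axis) for the 4 measured members with 2 probes, by array, with circles for replicate 1, triangles for replicate 2 and a bracket of 1 SD either side of the mean of 2 replicates. The brackets of the brighter (orange) and dimmer (green) probe overlap for Nab1 and Zfp36l1 and do not for Ier2, at 1.44 and 2.14, and Zfp36, at 1.45 and 0.93.

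Some member transcripts carry the AU-rich pentamer that ZFP36 proteins are known to bind. The letters ATTTA, read on the probe strand only, stood in 4 of the 15 member probes and in 9.16% of all 41174 probes, and TATTTAT in 3 of 15 and in 1.24%. The probes with ATTTA were those of Ier3, Egr1, Nab2 and the dimmer probe of Zfp36. The Nab2 probe and this Zfp36 probe each hold 2 ATTTA, and the stretches below do not show both. Stretches of 28 bases of the probes of Ier3, Nab2 and Zfp36 are shown, with each ATTTA in capitals.
Ier3: acacagatATTTAttacgATTTAtaggg
Nab2: agtagattATTTAttttgttattttgga
Zfp36: acgactttATTTAttgtattaagatttt
Among the genes of these probes, Egr1 was 2.72-fold and Nab2 1.42-fold higher in starved cells, the Zfp36 probe with the pentamer gave 1.90-fold, and the groups of Ier3 overlapped.

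Side by side, with the brightest probe of each gene, Egr2 stood alone at 3.0. Zfp36, Egr1 and Ier2 followed at 1.45, 1.44 and 1.44 and did not differ beyond their spread, with Nr4a1 at 1.19 just below. With the mean of a gene's probes Ier2 was at 1.79 and Zfp36 at 1.19, so the order of these genes depends on the probe. Zfp36l1 and Nab2, at 0.52 and 0.50, were again within their spread of each other, and Ier3 and Nab1 lay near 0. With arrays centred on their median in place of loess, Egr2 was at 2.96, Zfp36 at 1.38, Ier2 at 1.14 and Egr1 at 1.08. Under that setting Nr4a1 was at 0.94, Zfp36l1 at 0.27, Nab2 at 0.43, Ier3 at -0.33 and Nab1 at -0.40. The median over the 9 measured members was 1.19, against 0.01 over all 16069 genes. Since the members were selected on these ratios, nothing is read from that distance.

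**Figure D3:**
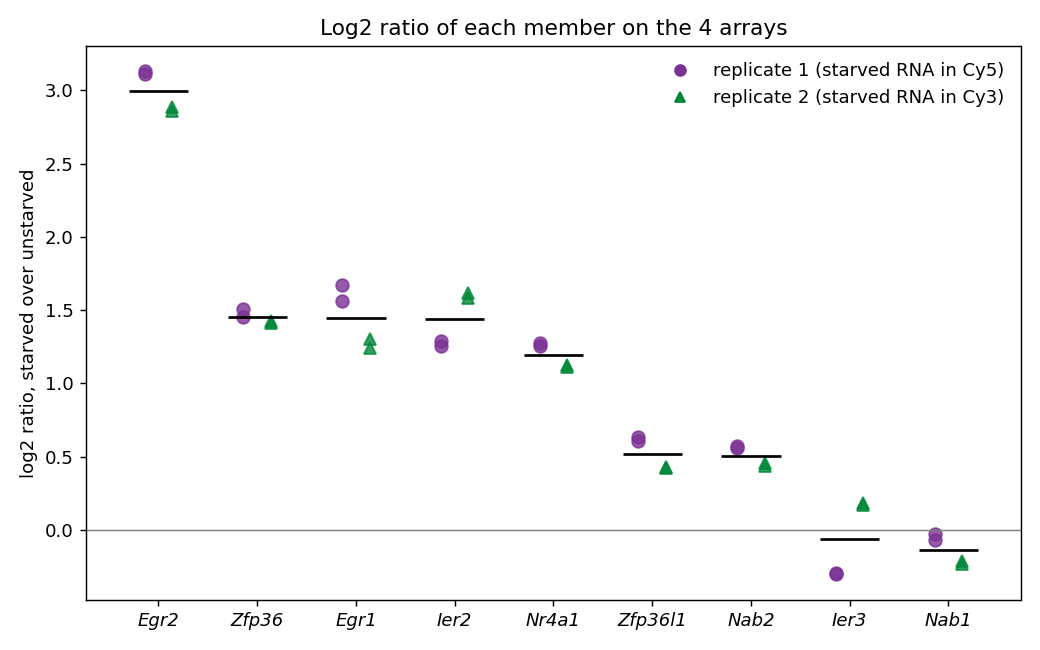
Log2 ratio of starved over unstarved cells (y axis) of the 9 measured members on the 4 arrays, with circles for replicate 1, triangles for replicate 2 and a bar at the mean of the replicates, ordered by that mean. The arrays of a replicate fall together, Ier3 is the only member on both sides of 0, and Ier2 and Ier3 alone are higher in replicate 2.

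In the fit over all genes (limma, Benjamini-Hochberg adjusted p below 0.05 over 16069 genes), 7 of the 9 measured members passed as higher in starved cells and 0 as lower, while 18.1% of all genes passed as higher and 13.4% as lower. Because the same contrast was known when the members were chosen, nothing is read from this count. The same holds for the 5 members at least 2-fold higher in both replicates (Egr1, Egr2, Nr4a1, Ier2 and Zfp36), set beside 2.2% of all genes, and for the 7 whose starved levels all lay above the unstarved ones, set beside 28.3% of all genes.

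Of the 4 measured relatives of the members, none passed as higher. The list held Egr4 and Wt1, which share the EGR-type zinc fingers, the receptor genes Nr4a2 and Nr4a3, Ier5 and Ier5l, and Zfp36l2 and Zfp36l3, and 4 of these 8 were measured. Ier5 fell, with a log2 ratio of -0.48 ± 0.12 (SE, n = 2, limma adjusted p = 0.00721). Under median centring its ratio was -0.85 and it did not pass (limma adjusted p = 0.728). Nr4a2 at 0.27 (adjusted p = 0.109), Ier5l at -0.02 (adjusted p = 0.930) and Zfp36l2 at -0.11 (adjusted p = 0.556) did not pass. Of the 4 measured, 25% thus passed, against 31.4% of all genes. Ier5l had -0.34 in replicate 1 and 0.30 in replicate 2, the same turn as Ier3. Egr4, Wt1, Nr4a3 and Zfp36l3 were not called above background on all arrays of any group.

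The AP-1 genes encode the FOS and JUN subunits of another serum-responsive transcription factor, and all 7 passed the test, 5 as higher and 2 as lower, beside 31.4% of all genes passing in either direction. Fos rose most, by a log2 ratio of 2.20 ± 0.16 (SE, n = 2, limma adjusted p = 3.61e-08), or 4.60-fold, with 2.64 in replicate 1 and 1.77 in replicate 2. Junb rose by 1.19 (adjusted p = 4.44e-05), Fosb by 0.90 (4.86e-05), Jun by 0.56 (0.00251) and Jund by 0.35 (0.0428). With arrays centred on their median in place of loess, Junb was at 0.76 and Jund turned to -0.12. The FOS relatives Fosl1 and Fosl2 fell, with log2 ratios of -0.93 (adjusted p = 2.32e-05) and -0.41 (0.0215).

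Among 32 other immediate early genes, all measured, 10 rose, 7 fell and 15 did not pass, so 53.1% passed, against 31.4% of all genes. The median ratio was -0.01. Cebpb, a leucine zipper transcription factor gene, rose by 1.62 on the log2 scale, or 3.07-fold (limma adjusted p = 5.29e-08), and Arc, best known from synapses, by 1.61, or 3.05-fold (5.19e-08). Ptgs2, the gene of the inducible cyclooxygenase, fell by 2.0 on the log2 scale, or 3.99-fold (2.37e-08), and Tnfaip3, which encodes the NF-kappaB inhibitor A20, fell by 1.63, or 3.09-fold (8.62e-08). The members higher in starved cells thus stood beside immediate early genes that were several-fold lower in the same samples.

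The pathway known to drive EGR genes was read from 24 measured genes of the RAS to ERK cascade and of the SRF cofactors, of which 2 rose, 4 fell and 18 did not pass. The 25% that passed lie near the 31.4% of all genes. Mrtfb, a myocardin-related SRF cofactor gene, fell by 1.14 on the log2 scale (limma adjusted p = 2.75e-06), Elk3, a ternary complex factor gene, by 0.98 (1.56e-05), and Rps6ka4, a kinase gene downstream of ERK and p38, by 0.70 (0.000427), while its relative Rps6ka5 rose by 0.93 (3.20e-05). Of the other ternary complex factor genes on the list, Elk4 rose by 0.53 (limma adjusted p = 0.00331) and Elk1 was not measured. Transcript levels of the ERK cascade do not report its activity, which was not measured.

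The list of ERK feedback genes held genes of phosphatases and of the SPRY and SPRED proteins that limit the pathway. Some of these phosphatases, that of Dusp16 among them, act mainly on kinases other than ERK. Of 12 measured, 4 rose, 2 fell and 6 did not pass, so 50% passed, against 31.4% of all genes. Dusp6, the gene of an ERK-specific phosphatase, rose by 0.80 on the log2 scale (limma adjusted p = 0.000104; 0.40 under median centring), Spred1 by 0.77 (0.000222) and Dusp16 by 0.73 (0.000240), while Dusp9 fell by 1.05 (1.25e-05).

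Genes described as EGR targets showed no common direction. Of 20 measured, 5 rose, 8 fell and 7 did not pass, so 65% passed, against 31.4% of all genes. The median ratio was -0.10. Those named here all fell: the fibronectin gene Fn1 by 1.09 on the log2 scale (limma adjusted p = 9.92e-06), the hyaluronan receptor gene Cd44 by 0.81 (0.000106) and the growth factor gene Pdgfb by 0.69 (0.000523). The list of NAB corepressor partners, most of them genes of the NuRD complex, held 14 genes. All were measured and 13 did not pass, so 7.14% passed, against 31.4% of all genes. The exception was Hdac2, a histone deacetylase gene, which fell by 0.40 (adjusted p = 0.0228).

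AU-rich transcripts known to be bound by tristetraprolin were likewise split. Of 16 measured, 5 rose, 5 fell and 6 did not pass, with a median ratio of -0.01. Thus 62.5% passed, against 31.4% of all genes. Ccnd1, the cyclin D1 gene, fell by 2.52 on the log2 scale, or 5.73-fold (limma adjusted p = 4.29e-10). Ptgs2 and Tnfaip3, described above, are also on this list. Csf2, a cytokine gene, was not called above background in starved cells and lay at least 1.996-fold lower there (limma adjusted p = 1.95e-06). Tnf was not called above background in unstarved cells and lay at least 1.426-fold higher in starved ones (limma adjusted p = 0.00163). Of the 32 genes of the deadenylation and decapping machinery and of the kinases and 14-3-3 proteins that act on ZFP36 proteins, 4 rose, 1 fell and 27 did not pass. That is 15.6% passing, against 31.4% of all genes. Btg1, whose protein binds the CCR4-NOT deadenylase, rose by 1.32 (8.11e-07), Cnot6l, a deadenylase subunit gene, by 0.64 (0.00119) and Pan2, a deadenylase gene with a second probe of opposite sign, by 0.53 (0.00344). The decapping enzyme gene Dcp2 fell by 0.51 (0.00643).

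**Figure D4:**
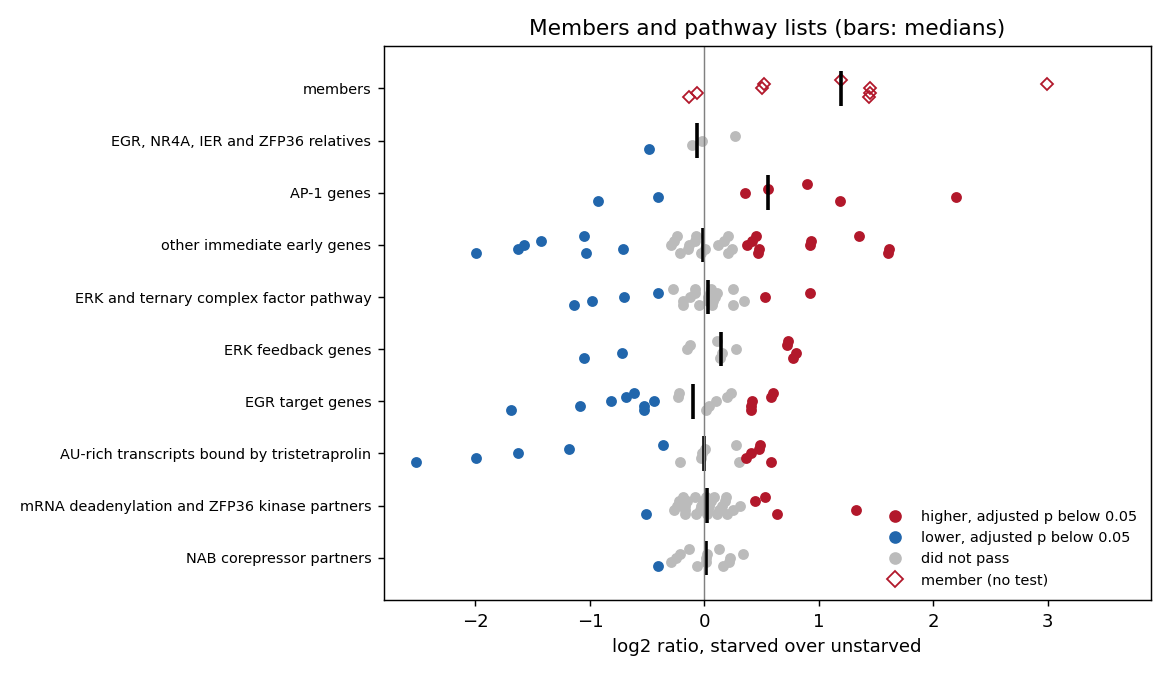
Log2 ratio of starved over unstarved cells (x axis) of each measured gene in the members' row (open diamonds, no test) and in 9 lists of related genes, with filled points red for higher, blue for lower and grey for not passing limma's adjusted p below 0.05, and bars at the median. The members' median of 1.19 lies to the right of the medians of the 9 lists, the nearest being the AP-1 genes at 0.56, and most lists hold red and blue points. The members were selected on these ratios, so nothing is read from the place of their median.

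Over the 9 lists together, 155 of 171 genes were measured, and 33 rose, 29 fell and 93 did not pass, so 40% passed, against 31.4% of all genes. These calls rest on the loess step. With arrays centred on their median instead, 7 of the 155 genes passed, of which 1 was higher, Fos, and 6 were lower, among them Ccnd1, Ptgs2, Tnfaip3, Id1 and Id3, while 61 of the 62 kept their sign. Of the members Egr2 alone passed under median centring, and all 9 kept their sign. Over all genes the count was then 249, against 5053 with loess.

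**Figure D5:**
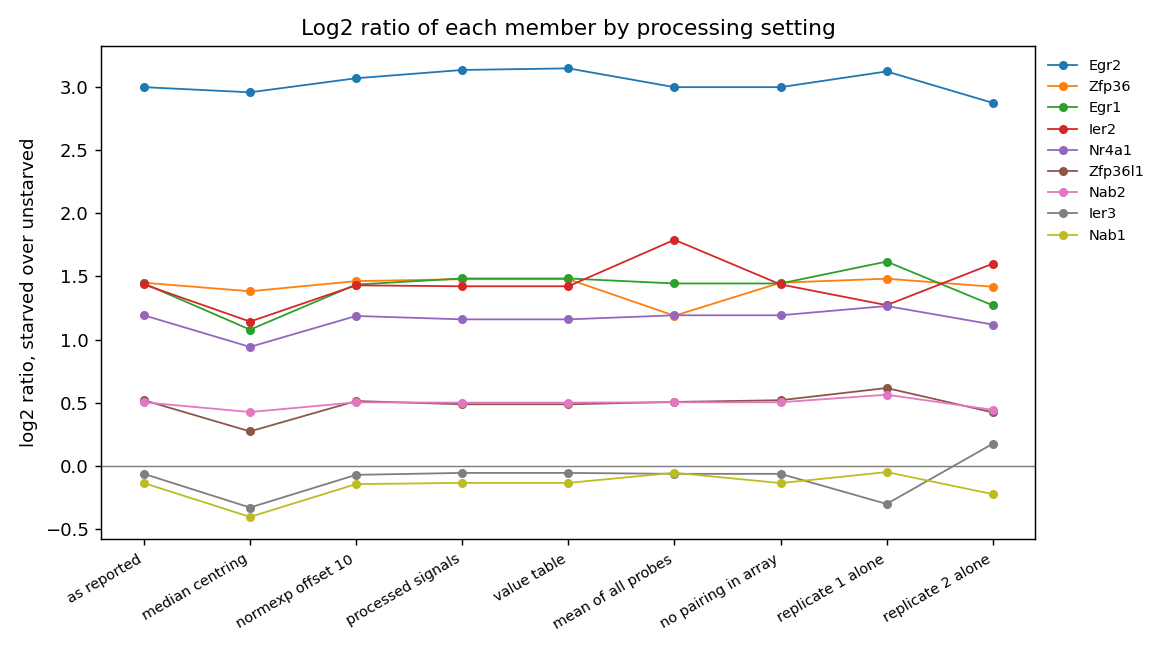
Log2 ratio of starved over unstarved cells (y axis) of the 9 measured members under the processing settings named on the x axis, with lines joining the values of 1 gene. The setting labelled no pairing in array is the one given in the text as no replicate block. Egr2 stays between 2.87 and 3.15, median centring gives the lowest value for 8 members when settings that keep all arrays are compared, with Zfp36 as the exception, and Ier3 alone changes sign, at 0.18 in replicate 2 alone.

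The median signal before normalisation was 370 and 262 in starved samples of replicate 1 and 243 and 237.5 in those of replicate 2, against 229 and 237 in unstarved samples of replicate 1 and 332 and 313 in those of replicate 2. In each sample 59.6% to 62.8% of probes were well above background, 0 spots were saturated, and all arrays share 1 slide and 1 scan, so no batch could be tested. Of 22 marker genes of collecting duct and epithelium, 19 were measured, among them Aqp2, Cdh16 and Hoxb7, and 9 rose and 2 fell. Their summed linear level was 590017 to 668375 in starved cells, against 656247 to 711675 in unstarved cells, while their median log2 ratio was 0.02. A sum over probes leans on the brightest of them, here and for the markers that follow. Of 12 leukocyte markers 7 were measured, of which Csf1r, Cd14 and Aif1 rose, Ptprc fell, and Cd68, Cd3e and Tyrobp did not pass. The summed linear level of these 7 was 18670 to 20556 in starved cells, against 10067 to 10730 in unstarved cells, while their median log2 ratio was -0.02. The markers Adgre1, Itgam, Lyz2, Cd79a and Cd52 were not well above background. Of 9 fibroblast markers 3 and of 9 endothelial markers 2 were measured, of which 2 and 2 fell, with Pecam1, Cdh5, Kdr, Pdgfra, Dcn and Col3a1 not well above background, and the summed levels were 1191 to 1260 and 1900 to 2143 in starved cells, against 1559 to 1690 and 3064 to 3264 in unstarved cells. Their part in the members' ratios was not tested.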

How the data were processed

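Starved and unstarved IMCD3 cells (4 samples each, on 4 arrays of 2 replicates) were compared. The deposited spot intensity values were made with Agilent Feature Extraction 9.5.3.1, per the submitters' processing notes; mean signals and local background medians were used. The value table deposited by the authors also holds linear intensity: the scanner's processed signal times 1 factor per array (0.753 to 0.806), with a floor of 15 shared by 14475 to 14607 probes per sample and medians of 74.7 to 77.1. The reason for the factor is unknown, and the table served as an alternative.

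Each sample was read from the channel of its labelled dye. Signals were corrected with normexp (offset 50) and normalised by loess within arrays in limma 3.58.1 (R 4.3.3). Control spots (1639 of 45018 per array) and 583 outlier spots over all arrays were left out, and spots of a probe were averaged. Kept were probes called well above background in 1 group or both, each time on all 4 arrays, and the brightest such probe stood for its gene (16069 genes). The mean of each replicate's 2 arrays was taken, and these 2 log2 ratios per gene were fitted with lmFit and eBayes, two-sided, at a Benjamini-Hochberg adjusted p below 0.05. There is 1 residual degree of freedom, so the error of a gene leans on the prior SD of 0.180 (log2 scale, 15.1 prior degrees of freedom) drawn from all genes. Channel levels came from loess and Aquantile. A bound sets the mean level of the bright group against the floor of detected probes on each array. The fit was tested on simulated data.

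By the labels both arrays of a replicate carry the same dye orientation, whereas the series text puts a dye swap inside each pair. The labels were followed, other pairings were run as alternatives, and the text calls the replicates biological. The number of arrays limits the precision. Symbols came from RefSeq tables by accession for 24490 probes, by symbol for 6234 and by synonym for 2391, and 8059 kept the array's name. Members and lists were chosen with earlier results of these data known. Named were all members, up to 4 genes per list with the largest absolute log2 ratio among those passing, all measured relatives and AP-1 genes, and the 3 genes nearest to Egr2. Id1, Id3, Elk1, Elk4 and the marker genes were singled out after their values were seen. A gene that this rule would name is not reported here.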

Additional observations from a re-analysis of the deposited data

How the results depend on the processing

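The members' median ratio was 0.94 under median centring, where 1 member (Egr2), 249 genes in all (133 higher, 116 lower) and 7 genes of the lists (1 higher, 6 lower) passed, and 0.857 over 10 genes without the filter on dim probes, which adds Egr3; the cause of the lower counts was not tested. With arrays paired as 1 and 2 against 3 and 4, as 1 and 4 against 2 and 3, or with a dye term, 14296, 14101 and 14200 genes in all and 140, 136 and 138 genes of the lists passed, and 9 members (7 higher, 2 lower). The replicate difference then leaves the error by construction. With no replicate block 7 members, 5861 genes in all and 69 genes of the lists passed, and with replicate as a random block 7, 5361 and 69, all within 1.5 times of the reported counts. Leaving out each array in turn gave 7 members, 4965 to 5521 genes in all, 60 to 64 genes of the lists and a members' median of 1.19 to 1.20; leaving out a replicate, which allows no test, gave a median of 1.12 to 1.27. The median over all genes, 0.01 as reported, had the opposite sign under median centring (-0.0788), processed signals (-0.0087), the deposited value table (-0.0089), no filter (-0.0028) and the mean of all probes (-0.0066). Ier3 had a ratio of -0.30 to 0.18 when a replicate was left out, the positive value without replicate 1. Under the other 2 alternatives, normexp offset 10 and a filter in both groups, all 9 members kept direction and call. Levels near background limit Egr3, Egr4, Wt1, Nr4a3 and Zfp36l3, for which no ratio was resolved.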
